A study of Mus musculus with 5 samples.

Results

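The binding of SOX11 and SOX4 was examined at 9 Polycomb genes, *Ezh1*, *Ezh2*, *Suz12*, *Eed*, *Jarid2*, *Mtf2*, *Bmi1*, *Rnf2* and *Cbx8*, out of 22372 annotated protein-coding genes of the mouse. A peak was counted for a gene when its centre lay in the gene body or within 10 kb of it, or when the nearest start of a protein-coding transcript belonged to that gene. This rule gave the 9 genes 21 SOX11 peaks, out of 21270 in the list, and 4 SOX4 peaks, out of 2669. ChIP-seq had been done on keratinocytes of newborn mice of a background labelled mixed 129SvEx:C57BL/6 with the genotype Krt14-Cre;Sox11fl/fl;Sox4fl/fl, in which Cre, driven by the promoter of a keratin of basal epidermal cells, removes both *Sox* genes. By the study's methods the Cre line came from FVB/N mice. The cells carried a lentivirus with doxycycline-inducible, FLAG-tagged *Sox4* (SOX4-FLAG, 2 libraries) or *Sox11* (SOX11-FLAG, 2 libraries) and had been given doxycycline for 24 h. An anti-FLAG antibody thus recovered an induced, tagged protein in cells whose own *Sox4* and *Sox11* were targeted by Cre, and 1 further library of the same genotype, named input in its title and IgG in its antibody field, has no peak list of its own. For each factor there is 1 deposited list of peak coordinates made from both replicates. It holds positions alone, which leaves the depth at each peak unknown and the replicates inseparable. The lists hold no expression values, so the keratinocyte identity of the cells could not be checked against its markers.

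Polycomb proteins keep genes silent through marks on histones and work in 2 main complexes. In PRC2, EZH2 or its relative EZH1 methylates lysine 27 of histone H3, SUZ12 and EED are needed for that activity, and JARID2 and MTF2 are accessory subunits that help to bring the complex to CpG-rich DNA. In PRC1, RNF2 (RING1B) is a ubiquitin ligase for histone H2A, BMI1 is its partner, and CBX8 is a chromobox protein that reads the methylation left by PRC2. In the epidermis EZH2 is known from basal progenitor cells, where it holds back genes of terminal differentiation, and *Ezh2* has been described as a target of SOX4 in other cell types.

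SOX11 peaks were found at 7 of the 9 genes and SOX4 peaks at 3 of them, *Ezh2*, *Eed* and *Mtf2*, all encoding subunits of PRC2. All 4 SOX4 peaks overlapped a SOX11 peak, as did 94.5% of the whole SOX4 list. The closest sites of both factors lay at the starts of *Mtf2* and *Ezh2*, whereas the pair of *Eed* lay 42.4 kb upstream of its start. *Suz12*, *Jarid2*, *Bmi1* and *Rnf2* had SOX11 peaks only, and *Ezh1* and *Cbx8* had no peak in either list. The best matches to the SOX motif in 7 of the peaks are shown here. They comprise the 4 without mismatch and the 5 with the word CTTTGTTC, which share 3 peaks, and that of *Suz12* for contrast. They are mm9 sequence written along the strand on which the motif reads, with the 10 letters of the match in capitals.
*Ezh2*, at the start, chr6:47545246-47545271, plus strand: agtcgctgTCTTTGTTCTtttgccaa
*Mtf2*, at the start, chr5:108494593-108494618, plus strand: agagtcccTCTTTGTTCAgcgctggt
*Mtf2*, first intron, chr5:108508808-108508833, plus strand: caaacactTCTTTGTCCTttaagaaa
*Eed*, 42.4 kb upstream, chr7:97171835-97171860, minus strand: tttgtcttCCTTTGTTCTagccactt
*Bmi1*, 4.20 kb upstream, chr2:18594440-18594465, plus strand: agactgttTCTTTGTTCCtttgtaaa
*Jarid2*, 69.0 kb upstream, chr13:44755894-44755919, minus strand: aatgccccGCTTTGTTCCtgaggatg
*Suz12*, at the start, chr11:79806377-79806402, plus strand: ccgaccccTCATTTTCCCgcgaattc
The matches of *Ezh2*, *Eed*, *Bmi1* and the intron of *Mtf2* had no mismatch to the SOX motif, while those upstream of *Jarid2* and at the starts of *Mtf2* and *Suz12* had 1 mismatch each.

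**Figure D1:**
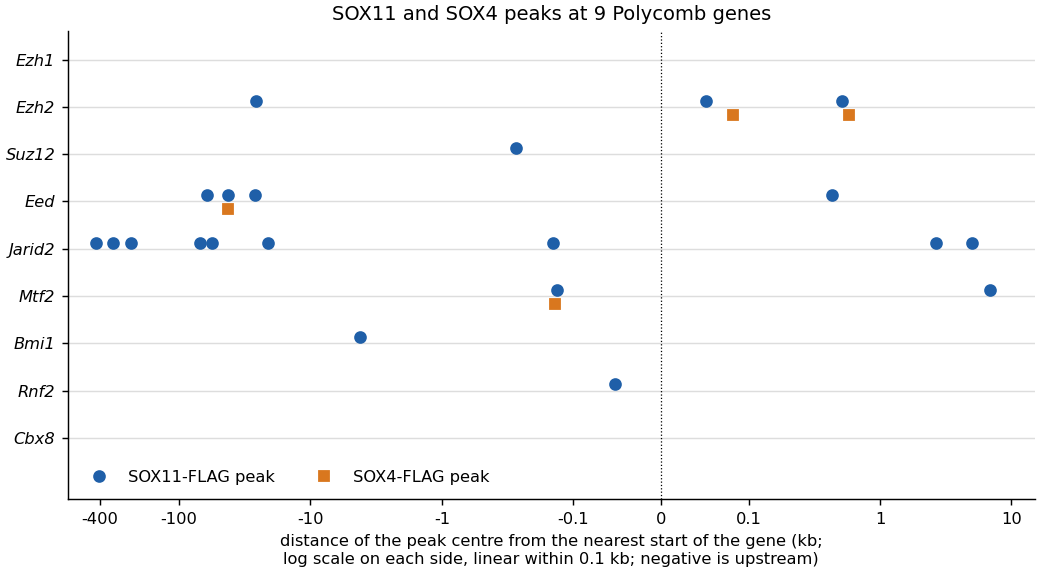
Peaks at each of the 9 genes, by the distance of the peak centre from the nearest start of a protein-coding transcript of the gene (horizontal axis, in kb, logarithmic on each side of a linear stretch within 0.1 kb, upstream to the left). Circles are the 21 SOX11 peaks and squares the 4 SOX4 peaks; *Ezh1* and *Cbx8* have none, and each square lies beside a circle of the same gene.

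The share of genes with a SOX11 peak was 77.8% among these 9 (7 genes), beside 57.3% of all protein-coding genes under the same rule. For SOX4 it was 33.3% (3 genes), beside 13.1% of all genes, and an overlapping pair of both factors was found at the same 3 genes, beside 12.4% of all genes. Promoters were taken to reach 1 kb upstream and 100 bp downstream of any start. A SOX11 peak was centred in a promoter of 5 of the 9 genes, *Ezh2*, *Suz12*, *Jarid2*, *Mtf2* and *Rnf2*, beside 21.8% of all genes. A SOX4 peak was centred in a promoter of 2, *Ezh2* and *Mtf2*, beside 2.59% of all genes. The background was higher at GC-rich starts. Of the genes with a GC content of at least 60% from 250 bases before to 50 bases after their outermost start, a background chosen after seeing the data, 34.6% had a SOX11 peak in a promoter and 4.03% a SOX4 peak. Among the 9 genes, 6 had such a start, of which 4 had a SOX11 peak in a promoter and 2 a SOX4 peak. No test was run between the 9 genes and the others, since the genes were chosen with earlier results of these lists known, and counts of this size shift by many percentage points with a single gene.

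**Figure D2:**
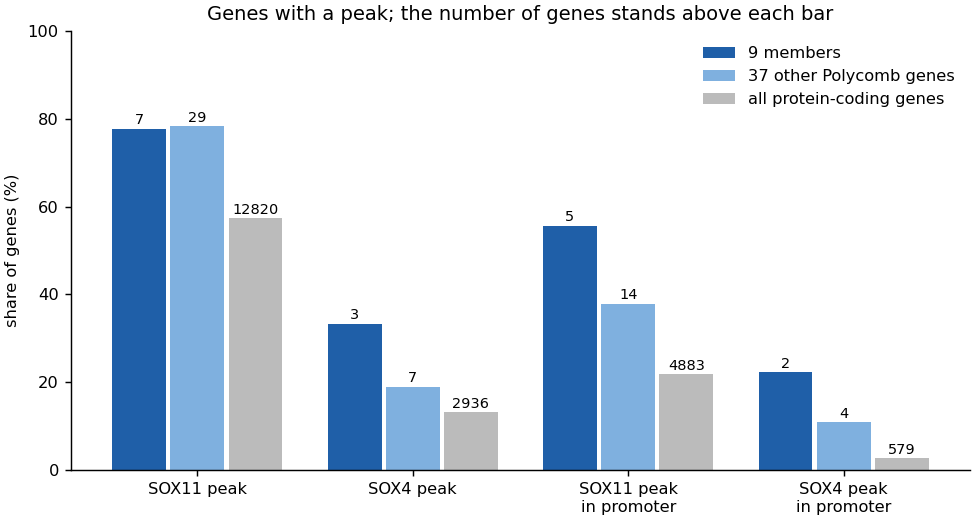
Share of genes with a peak (vertical axis, in %) for the 9 genes, for 37 other Polycomb genes and for all 22372 protein-coding genes, with the number of genes above each bar. The dark bars, of 7, 3, 5 and 2 genes, are the tallest in 3 of the 4 groups, and the dark and light blue bars for any SOX11 peak are nearly level.

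*Ezh2* (ENSMUSG00000029687, chromosome 6, 47480273 to 47545340, minus strand) had 3 SOX11 peaks and 2 SOX4 peaks. The first SOX11 peak, from 47545160 to 47545417, was centred 51 bp downstream of the outermost start, and the SOX4 peak from 47545088 to 47545427 was centred 31 bp from it. They cover exon 1, and the exact SOX match shown above lies there in the 5' UTR, 30 bp from the centre of the SOX11 peak and 1 bp from that of the SOX4 peak. The second SOX11 peak, from 47544385 to 47544642, lay in intron 1, 775 bp further along the gene, and the SOX4 peak from 47544281 to 47544620 was centred 63 bp from it. This second SOX11 peak was centred 515 bp downstream of its nearest start, an alternative start of *Ezh2*. It had no match to the 10-letter SOX motif, but it held the shorter SOX core, CTTTGT or CATTGT, at 2 places, and 1 GC box (CCCCGCCC). The third SOX11 peak, from 47571154 to 47571411, lay 25.9 kb upstream between genes and had no SOX4 peak. It held a SOX match with 1 mismatch and an AP-1 core (TGACTCA or TGAGTCA), the sequence bound by FOS and JUN proteins. The intronic peak is shown whole, along the strand of the gene, with the SOX cores in capitals, since it is the site of both factors at *Ezh2* that lacks the longer motif.
*Ezh2*, intron 1, chr6:47544385-47544642, minus strand: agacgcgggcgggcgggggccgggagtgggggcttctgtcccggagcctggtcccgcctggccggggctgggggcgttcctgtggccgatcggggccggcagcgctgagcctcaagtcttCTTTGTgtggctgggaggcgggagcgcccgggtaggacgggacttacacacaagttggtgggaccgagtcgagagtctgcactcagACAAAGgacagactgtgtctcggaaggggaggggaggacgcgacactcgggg

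A count made after the pattern was seen at *Ezh2* took the SOX11 peaks centred within 1 kb of a start of a gene. It asked how many genes have 2 or more such peaks that overlap a SOX4 peak. Only 3 of the 22372 genes, or 0.0134%, did, namely *Ezh2*, *Tcf12* and *Pde7a*. In *Tcf12* the SOX11 centres were 725 bp apart, while in *Pde7a* they stood at separate starts, 45352 bp apart. The combination of 3 SOX11 and 2 SOX4 peaks, counted by the full rule with the nearest start included, was less rare and occurred at 59 genes, or 0.264%.

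*Mtf2* (ENSMUSG00000029267, chromosome 5, 108494693 to 108538023, plus strand) encodes an accessory subunit of PRC2 with affinity for unmethylated CpG-rich DNA. It carried the earliest promoter peak of both lists, whose order is not explained in the sources used here. Its SOX11 peak from 108494487 to 108494744 is number 2 of the SOX11 list, and its SOX4 peak from 108494440 to 108494779 is number 2 of the SOX4 list. Their centres are 6 bp apart and lie 132 and 138 bp upstream of the nearest start of a coding transcript. The SOX match is 10 bp from the centre of the SOX11 peak and 4 bp from that of the SOX4 peak, and a GC box follows it within the same peak. The part of the SOX11 peak upstream of the annotated exons reads as follows along the gene, with the SOX match in capitals.
*Mtf2*, upstream of the start, chr5:108494487-108494692, plus strand: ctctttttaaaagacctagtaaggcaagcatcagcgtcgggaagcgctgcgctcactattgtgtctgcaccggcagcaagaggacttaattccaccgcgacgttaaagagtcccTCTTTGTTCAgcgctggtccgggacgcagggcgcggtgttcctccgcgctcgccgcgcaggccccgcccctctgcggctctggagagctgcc
A second SOX11 peak of *Mtf2*, from 108508691 to 108508948 in intron 1, is number 6368 of its list and had no SOX4 peak. It held 2 exact SOX matches and 1 AP-1 core within 258 bp, and its GC content was 36.4%, against 63.2% for the peak at the start. The exact matches are in capitals below.
*Mtf2*, intron 1, chr5:108508691-108508948, plus strand: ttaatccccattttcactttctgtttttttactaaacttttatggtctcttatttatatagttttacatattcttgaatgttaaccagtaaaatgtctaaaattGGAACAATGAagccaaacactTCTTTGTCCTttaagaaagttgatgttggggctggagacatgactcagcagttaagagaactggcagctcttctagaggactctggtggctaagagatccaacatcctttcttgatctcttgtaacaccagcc

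**Figure D3:**
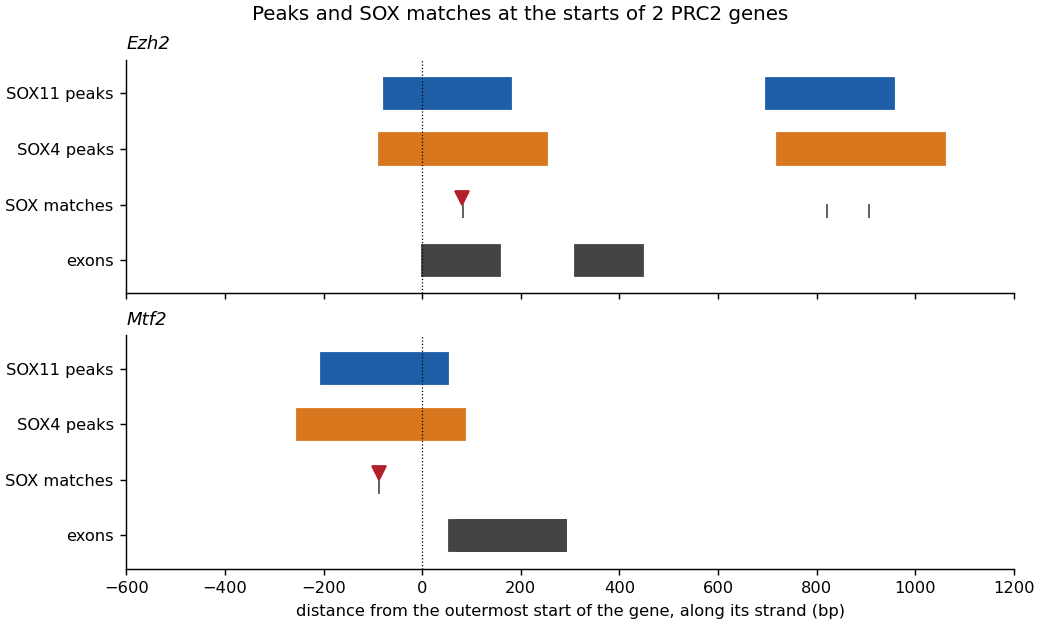
Peaks, SOX matches and exons of coding transcripts around the starts of *Ezh2* and *Mtf2*, by distance from the outermost start of the gene along its strand (horizontal axis, in bp). Triangles mark matches to the 10-letter SOX motif with at most 1 mismatch, ticks the exact SOX core of 6 letters; both factors have 2 peaks at *Ezh2*, with a triangle in the first pair only, and 1 peak each at *Mtf2*.

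*Eed* (ENSMUSG00000030619, chromosome 7, 97103166 to 97129493, minus strand), whose product binds the methylated lysine and stimulates PRC2, had 4 SOX11 peaks. One, from 97128931 to 97129188, lay in the 5' UTR of exon 1 and was number 10563 of the list. It had a GC box but no SOX match. The other 3 were upstream of the gene at 26.2, 42.4 and 61.6 kb, in stretches without an annotated gene. Of these, only the middle one, from 97171719 to 97171976, had a SOX4 peak, from 97171696 to 97172035, with centres 18 bp apart. It is number 2500 of the SOX11 list, ahead of the others, and its exact SOX match sits at the centre of the peak. The nearest protein-coding start to each of these peaks is that of *Eed*, which does not show that the site acts on *Eed*. The peak is given whole below, along the strand of *Eed*, with both of its SOX matches in capitals. The first is the exact one, and the second has 1 mismatch, which falls within the core.
*Eed*, 42.4 kb upstream, chr7:97171719-97171976, minus strand: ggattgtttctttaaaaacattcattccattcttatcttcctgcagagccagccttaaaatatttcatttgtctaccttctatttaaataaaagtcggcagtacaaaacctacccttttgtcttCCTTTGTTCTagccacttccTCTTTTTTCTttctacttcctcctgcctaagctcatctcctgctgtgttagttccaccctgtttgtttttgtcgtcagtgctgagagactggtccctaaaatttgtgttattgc

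*Jarid2* (ENSMUSG00000038518, chromosome 13, 44824843 to 45017012, plus strand) had the most SOX11 peaks of the 9 genes, 9 in all, and no SOX4 peak. Only 0.849% of all genes had 9 or more SOX11 peaks, and with 192 kb *Jarid2* is longer than most, at percentile 95.5 of gene length. Of the 9 peaks, 4 lay in the gene and 5 upstream of it, between 55.8 and 427 kb from the nearest of its starts. Those 5 lay outside the gene and its flank and were counted through the nearest start alone. This does not show that they act on *Jarid2*. The peak from 44825870 to 44826127 was centred 144 bp upstream of an alternative start. The others in the gene lay in introns. All 9 came late in the SOX11 list, at numbers 12054 to 21234. The AP-1 core was found in 3 of the 9 peaks, beside 28.5% of all SOX11 peaks. These 3 were the farthest upstream, at 230, 320 and 427 kb. SOX matches, each with 1 mismatch, were found in 5 of the 9, beside 47.3% of all SOX11 peaks. A pair of both factors lay beyond the gene, 17.8 kb past its end in *Dtnbp1*, where the SOX11 peak is number 2457 and the SOX4 peak number 1928. It falls outside the rule for *Jarid2*.

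*Suz12* (ENSMUSG00000017548, chromosome 11, 79806608 to 79847625, plus strand), the scaffold of PRC2, had a single SOX11 peak, from 79806204 to 79806461, centred 275 bp upstream of its start and number 8707 of the list. Its SOX match had 1 mismatch and stood 57 bp from the centre, and a separate exact SOX core stood 16 bp from the centre. The nearest SOX4 peak was 385 kb from the start of *Suz12*. *Ezh1* (ENSMUSG00000006920, chromosome 11, 101052429 to 101087777, minus strand), the relative of *Ezh2* that prevails in cells that no longer divide, had no peak. The nearest SOX11 peak was 52.5 kb upstream of it, 28 bp from the start of *Ccdc56*, and the nearest SOX4 peak was 506 kb away. The 2 genes for the methyltransferase therefore differed in these lists. *Ezh2* had 3 SOX11 peaks and 2 SOX4 peaks, each of the latter overlapping a SOX11 peak, and *Ezh1* had none. Absence at a single gene is common, as 57.3% of all genes had a SOX11 peak and 13.1% a SOX4 peak.

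Of the 3 PRC1 genes, 2 had a SOX11 peak and none a SOX4 peak, beside 5 and 3 of the 6 PRC2 genes. With 3 genes, and 13.1% of all genes having a SOX4 peak, these counts do not set the complexes apart, and PRC1 genes with SOX4 peaks stand among the other Polycomb genes described last. *Rnf2* (ENSMUSG00000026484, chromosome 1, 153316536 to 153347953, minus strand) had a SOX11 peak from 153347876 to 153348133, centred 52 bp upstream of its start and number 13863 of the list. It held neither a SOX match, nor an AP-1 core, nor a GC box. Its GC content was 70.5%. The part upstream of the annotated exon is shown for contrast with *Mtf2*, with no letters in capitals.
*Rnf2*, upstream of the start, chr1:153347954-153348133, minus strand: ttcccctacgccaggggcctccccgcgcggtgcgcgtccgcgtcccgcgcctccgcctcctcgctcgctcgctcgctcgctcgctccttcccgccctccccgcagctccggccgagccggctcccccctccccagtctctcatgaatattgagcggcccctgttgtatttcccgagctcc
The peak of *Bmi1* (ENSMUSG00000026739, chromosome 2, 18598645 to 18608256, plus strand), from 18594315 to 18594572, was centred 4.20 kb upstream of the gene. It lies in an intron of the neighbouring *Commd3*, 394 bp from the start of *Commd3*, and was counted for *Bmi1* through the flank of 10 kb. This peak is number 979 of the SOX11 list and has an exact SOX match 9 bp from its centre, yet no SOX4 peak overlaps it, and the nearest one was 86.3 kb from the start of *Bmi1*. It is printed because it is the only one of the 5 earliest SOX11 peaks here without SOX4.
*Bmi1*, intron of *Commd3*, chr2:18594315-18594572, plus strand: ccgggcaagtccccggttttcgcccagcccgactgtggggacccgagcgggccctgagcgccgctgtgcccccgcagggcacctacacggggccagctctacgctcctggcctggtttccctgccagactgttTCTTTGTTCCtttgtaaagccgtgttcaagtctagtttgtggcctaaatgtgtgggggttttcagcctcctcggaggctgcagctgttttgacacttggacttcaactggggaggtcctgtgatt
*Cbx8* (ENSMUSG00000025578, chromosome 11, 118897619 to 118902283, minus strand) had no peak. The nearest, SOX11 peak number 3228, was centred 12.4 kb from the gene, just outside the flank, in the body of *Cbx2*, 955 bp from its start. *Cbx2*, a related PRC1 gene, also had a SOX11 peak in its promoter, at number 1294 of the list. The value just inside the limit of 10 kb was the 4.20 kb of *Bmi1*, so no peak of the 9 genes stood close to the limit on its inner side.

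The 2 lists are not in genomic order, and what orders them is not given in the sources used here. In the SOX11 list the share of peaks that overlap a SOX4 peak was 81.1% in the first 1000 and 55.0% in the first 2669, as many as the SOX4 list holds, and 5.67% in the rest. Of the 21 SOX11 peaks of the Polycomb genes, 5 stood among the first 2669, and 4 of these overlapped a SOX4 peak. None of the 16 later peaks did. In all, 4 of the 21, or 19%, overlapped a SOX4 peak (95% Wilson interval 7.67 to 40.0%), beside 11.9% of the whole list, a share that lies within this interval. The interval covers counting error only, and peaks of a gene are not replicates. The centres of the 4 pairs were 6 to 63 bp apart, beside a median of 24 bp and quartiles of 10.0 and 55.0 bp over all 2522 pairs.

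**Figure D4:**
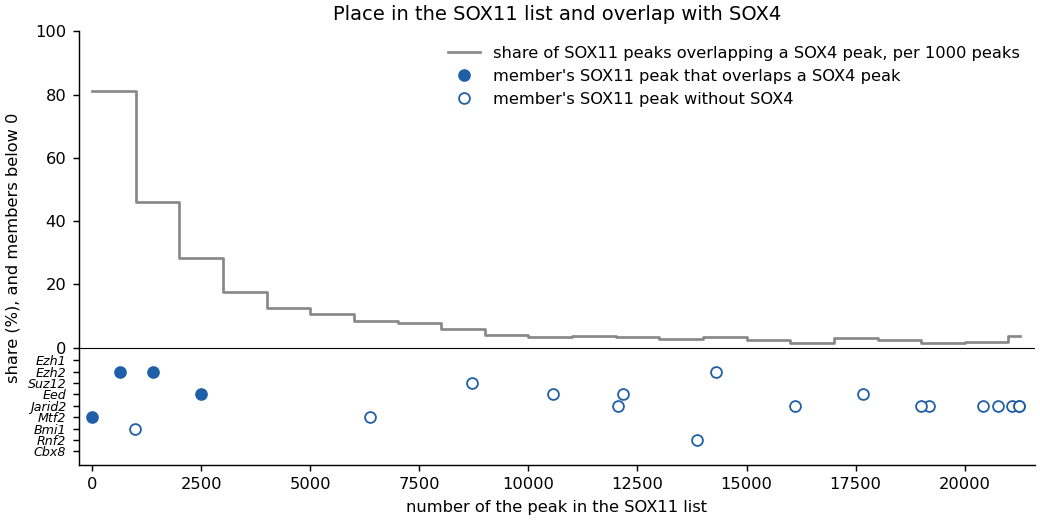
Step line: share of SOX11 peaks that overlap a SOX4 peak (vertical axis, in %), in steps of 1000 peaks along the SOX11 list (horizontal axis, number in the list). Below 0, 1 row per gene shows its SOX11 peaks, filled where a SOX4 peak overlaps; the 4 filled circles lie at numbers 2, 635, 1392 and 2500, and the peaks of *Jarid2* lie at 12054 and later.

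The SOX motif has 10 letters, the core CTTTGT or CATTGT with a pyrimidine before it and a pyrimidine, a C and a pyrimidine after it, and was searched on both strands with 1 mismatch allowed. It was found in 13 of the 21 SOX11 peaks, or 61.9% (95% Wilson interval 40.9 to 79.2%), beside 47.3% of the whole SOX11 list, which lies within the interval. The core alone was found in 12 of the 21, or 57.1%, beside 58.5% of the list. The allowed mismatch could fall within the core, so a match with 1 mismatch need not hold the exact core. Among the best matches it fell there at the start of *Suz12*, 25.9 kb upstream of *Ezh2* and 61.6 kb upstream of *Eed*. The same held for the *Jarid2* peaks 427, 320 and 55.8 kb upstream and for the intronic one 5.03 kb past a start. Sequences of equal width were also taken 2 kb towards higher coordinates, whatever the strand of the gene. They held the 10-letter motif, with 1 mismatch allowed, in 3 of 21 cases, beside 29.9% for the whole list. They held the core in 4 of 21 cases, beside 32.2%. Without mismatches the 10-letter motif was found in 4 of the 21 peaks, beside 11.3% of the list. The word CTTTGTTC, chosen after the matches of these genes were seen and contained in one form of the longer motif, was found in 5 of the 21 peaks, those at the starts of *Ezh2* and *Mtf2*, upstream of *Eed*, at *Bmi1* and 69.0 kb upstream of *Jarid2*, beside 9.53% of the list. Of these 5, 4 stood among the first 2669 SOX11 peaks, of which 23.3% hold the word. The motif was found in 3 of the 4 peaks with SOX4 and in 10 of the 17 without, beside 70.3% and 44.2% in the whole list.

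The AP-1 core, which reads the same on both strands but for its middle letter, was found in 6 of the 21 peaks, or 28.6% (95% Wilson interval 13.8 to 50.0%), beside 28.5% of the whole list. These were the peak 25.9 kb upstream of *Ezh2*, the one 61.6 kb upstream of *Eed*, the intronic peak of *Mtf2* and the 3 farthest of *Jarid2*. None lay in a promoter, where 5.70% of the peaks of all genes hold the core. None overlapped a SOX4 peak, beside 10.5% of all SOX11 peaks with the core, and 26.1% of the whole SOX4 list holds it, so 0 of 6 is near the background. A SOX match was also found in 5 of the 6, beside 47.3% of all SOX11 peaks, with or without the AP-1 core. It had 1 mismatch in each of them but the intronic peak of *Mtf2*. The share among all peaks with the AP-1 core is not given here. The GC box CCCCGCCC was found in 4 peaks, beside 10.7% of the list, all of them within 515 bp of a start, at *Ezh2*, *Eed*, *Jarid2* and *Mtf2*. Over all genes 33.0% of promoter peaks and 4.51% of the other peaks hold it. The 5 promoter peaks of the 9 genes had a GC content of 63.2 to 71.3% (median 69.0%), beside a median of 64.7% over 4629 promoter peaks of all genes. SOX matches were found in 3 of these 5, beside 30.9% of all promoter peaks. A match is a description of the sequence, and no match says only that these letters are not in the peak.

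**Figure D5:**
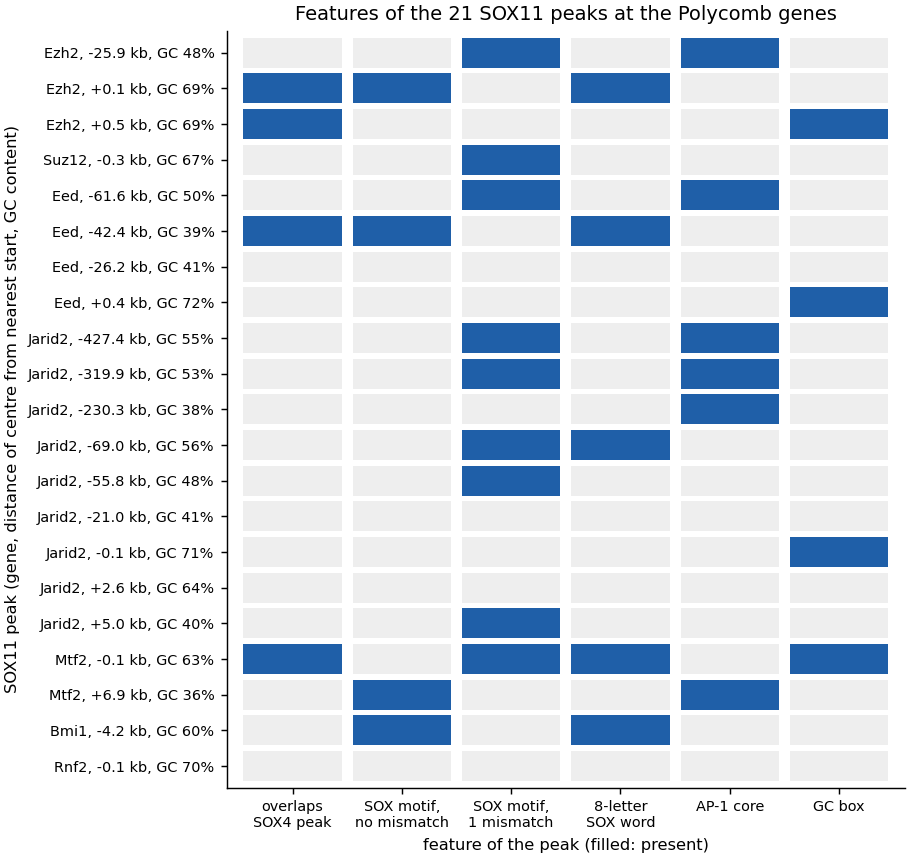
The 21 SOX11 peaks of the Polycomb genes (rows, with gene, distance of the centre from the nearest start and GC content) and the features found in each (columns; filled where present). The 6 peaks with an AP-1 core have no SOX4 peak, beside 10.5% with one among all SOX11 peaks with the core, and the 4 peaks with a GC box lie within 515 bp of a start, as the box is held by 33.0% of all promoter peaks and 4.51% of the others.

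The same rule was applied to 37 other genes of the Polycomb and associated complexes. SOX11 peaks were found at 29 of them, or 78.4%, a share near that of the 9 genes, and SOX4 peaks at 7, or 18.9%. The 7 were *Rbbp4*, a histone-binding core subunit of PRC2, *Pcgf3*, *Phc1*, *Phc2* and *Auts2* of PRC1, *Kdm2b*, which recruits a variant PRC1 to CpG islands, and *Kdm6b*, a demethylase that removes the mark of PRC2. *Phc2* had the same counts as *Ezh2*, 3 SOX11 and 2 SOX4 peaks. *Rbbp4*, *Pcgf3*, *Phc2* and *Kdm2b* had a SOX4 peak in a promoter, and a SOX11 peak was centred in a promoter of 14 of the 37, or 37.8%. Most SOX11 peaks were found at *Auts2*, with 13 over a gene of 1106 kb, and *Bcor*, with 10, followed by *Scmh1*, *Rybp* and *Kdm6b*, with 5 each. No peak of either list was found at *Rbbp7*, *Phf19*, *Pcgf1*, *Cbx6*, *Scml2*, *Bcorl1*, *Asxl3* and *Kdm6a*.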

How the data were processed

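ChIP-seq libraries of SOX11-FLAG and SOX4-FLAG keratinocytes were sequenced by the authors as single-end reads of 50 bp and mapped to mm9 with Bowtie2. Non-nuclear, unmapped and low-quality reads and duplicates (Picard) were removed, HOMER (findPeaks, factor style) called the peaks, and those in blacklisted regions were taken out with bedtools. Versions, thresholds and the control given to HOMER are not given in the sources used here. The deposited values are peak coordinates, with both replicates of a factor in 1 list; starts were read as 0-based and are printed from 1. Depth is unknown.

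Genes came from GENCODE M1 on the same build (NCBIM37), restricted to genes with a protein-coding transcript; unlabelled distances run from the peak centre to the nearest start of such a transcript. Overlaps of at least 1 bp were counted in Python 3.11.15 (numpy 2.4.6), with bedtools 2.31.1 as a check. Motifs were searched over the whole peak on both strands of sequence read with pysam 0.24.0, and the SOX core and the 8-letter word can lie within the SOX motif. Wilson intervals came from scipy 1.17.1. The nearest start, promoter rule, overlap and motif search were tested on simulated data. The members and lists were chosen with earlier results of these data known. All 9 members are named; of 37 other Polycomb genes, those with a SOX4 peak, with no peak, with the counts of *Ezh2*, or among the 3 with most SOX11 peaks (ties included) are named. *Tcf12*, *Pde7a* and *Dtnbp1* were named after their values were seen, and other neighbours because they hold a peak or start beside a member. No test was made.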

Additional observations from a re-analysis of the deposited data

How the results depend on the processing

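Of 40 alternatives to 10 results, 35 stayed within 1.5 times the count or within the interval of the share. Counted in the gene body and its flank alone, the members had 12 SOX11 peaks in place of 21, and *Eed* lost its SOX4 peak, which left 2 members with SOX4 in place of 3. With a flank of 50 kb, 14 of the other Polycomb genes had a SOX4 peak in place of 7, *Cbx8* gained a SOX11 peak and *Jarid2* a SOX4 peak. With the nearest start only, *Bmi1* lost its peak. The share of the members' SOX11 peaks with the SOX motif, 61.9%, was 19% without mismatches, 38.1% within 50 bp of the centre and 23.8% for the 8-letter word, which was chosen after seeing the data. The first of these asks for more matching letters, the next searches less sequence, and the word is a single spelling. No paired analysis was possible because each factor has a single list made from both replicates, and for the same reason no replicate could be left out. The lists hold no height, so a site just under the authors' threshold cannot be told from one without signal.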
